A study of Homo sapiens with 7 samples.

Results

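MYCN sites on the outer part of the short arm of human chromosome 19 were described in Kelly cells, a neuroblastoma line in long use, with an amplified MYCN gene and a mutated, constantly active ALK receptor kinase. The members are rows of the peak list named for TAE684-sensitive cells. They are those on chromosome 19 with a summit (the position of locally highest signal) below 19.8 Mb on the hg19 build. They number 1502 of 64657 summits, or 2.32% of the list, and fall in 1094 separate intervals. This stretch is called the segment below. It stops short of the centromere, so the part of the short arm nearest to the centromere is not in it. The rule uses position only, and no measured value chose the members.

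The series sets MYCN chromatin immunoprecipitation with sequencing (ChIP-seq) in Kelly cells resistant to the ALK inhibitor TAE684 beside the same in sensitive Kelly cells. Resistant cells were kept with 1 µM TAE684 for 48 h and have 2 MYCN ChIP samples and 2 input samples. Sensitive cells were kept with DMSO, the vehicle, for 48 h and have 2 MYCN ChIP samples and 1 input sample. Both groups are the same line, and each state has 1 peak list for both of its ChIP samples, so no value here has a replicate error and no test across samples could be made. Input is sheared chromatin sequenced without antibody selection. The 2 lists were identical in 64657 of 64657 rows, so resistant cells are not compared with sensitive cells here. All values are those of the list named for sensitive cells. Which of the 2 states this shared list comes from cannot be told from the lists, so the values may not be those of sensitive cells.

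MYCN is a transcription factor of the basic helix-loop-helix leucine zipper family. It pairs with MAX, and the pair binds E-box DNA, with CACGTG as the best known form. In neuroblastoma cells with MYCN amplification the protein is abundant and is known to occupy very many promoters and enhancers with open chromatin. Chromosome 19 is known for its high density of genes and CpG islands. Its short arm carries, among others, the kinase gene STK11, the E-protein gene TCF3, the DNA methyltransferase gene DNMT1, the chromatin remodeller gene SMARCA4 and the AP-1 genes JUNB and JUND. Families of zinc-finger and olfactory receptor genes lie between such genes. No gene annotation or genome sequence on hg19 was used, so sites are given by position, no site is tied to a gene and no sequence is printed.

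The values of each peak are the authors' own. The fold enrichment is the ChIP pileup over a local background at the summit, and the local background is the largest of several estimates from the input. The number of ChIP fragments over each summit and its local background, in input fragments, were recovered from the fold enrichment and the p-value. The lowest background, 1.61 input fragments, is the genome-wide mean. Over the whole list a summit held at most 280 ChIP fragments. The 95% intervals given below cover counting error only, because several fragments may stem from 1 molecule and neighbouring summits are not separate sites.

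MYCN summits were denser on the segment than on the other autosomes. There were 75.9 summits per Mb on the segment, against 21.2 per Mb on the other autosomes up to their last peaks. The ratio was 3.57 (95% CI 3.39 to 3.76). Counted as intervals, the segment had 55.3 per Mb and the other autosomes 15.7 per Mb. MYCN intervals covered 479 kb of the segment, or 2.42% of its length, against 0.644% of the other autosomes.

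The density was also higher than on the rest of chromosome 19 and on chromosomes 16, 17 and 22, which were taken as gene-dense chromosomes for comparison. Chromosome 11 was not in this set. By gene counts on GRCh38 it had 9.66 protein-coding genes per Mb, against 9.47 on chromosome 16 and 8.80 on chromosome 22. The rest of chromosome 19 had 46.1 summits per Mb, which put the segment at a ratio of 1.65 (95% CI 1.54 to 1.76). The ratio was 1.59 (95% CI 1.50 to 1.69) against chromosome 17, 2.15 (95% CI 2.01 to 2.30) against chromosome 22 and 2.64 (95% CI 2.48 to 2.82) against chromosome 16. On the other autosomes, 132 windows as long as the segment were also laid end to end from the start of each chromosome. The stretch after the last full window of each chromosome was left out, and windows at other positions were not counted. All comparisons with windows here and below have this limit. None of these 132 windows was as dense. The densest window, on chromosome 11, had 60.2 summits per Mb, and the next, on chromosome 17, had 57.9. Lengths include sequence to which no read can be mapped, and copy number was not accounted for.

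Along the segment the density varied, with rich stretches separated by poorer ones. Over the 19 full bins of 1 Mb, the number of summits was 76.1 ± 36.4 (SD over bins), against 21.1 ± 21.9 over 2833 bins of the other autosomes. All 19 bins exceeded 15, the median of the other autosomal bins, and 13 exceeded 51, their 90th percentile. Of the other autosomal bins, 279 held no summit.

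The richest bin ran from 1 to 2 Mb and held 169 summits in 119 intervals. Only 1 of the 2833 other autosomal bins had as many. Next came the bin from 18 to 19 Mb with 133 summits, a number reached in 5 other autosomal bins. The bins from 0 to 1 Mb and from 4 to 5 Mb held 97 summits each, and the 5 richest bins together held 39.1% of the segment's summits.

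The poorest bins, from 6 to 7 Mb and from 9 to 10 Mb, held 27 summits each. The bin from 15 to 16 Mb held 31 and the bin from 16 to 17 Mb held 32. Even so, 71.0% of the other autosomal bins had fewer summits than the 2 poorest bins. The last 0.8 Mb of the segment held 57 summits, or 71.2 per Mb.

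**Figure D1:**
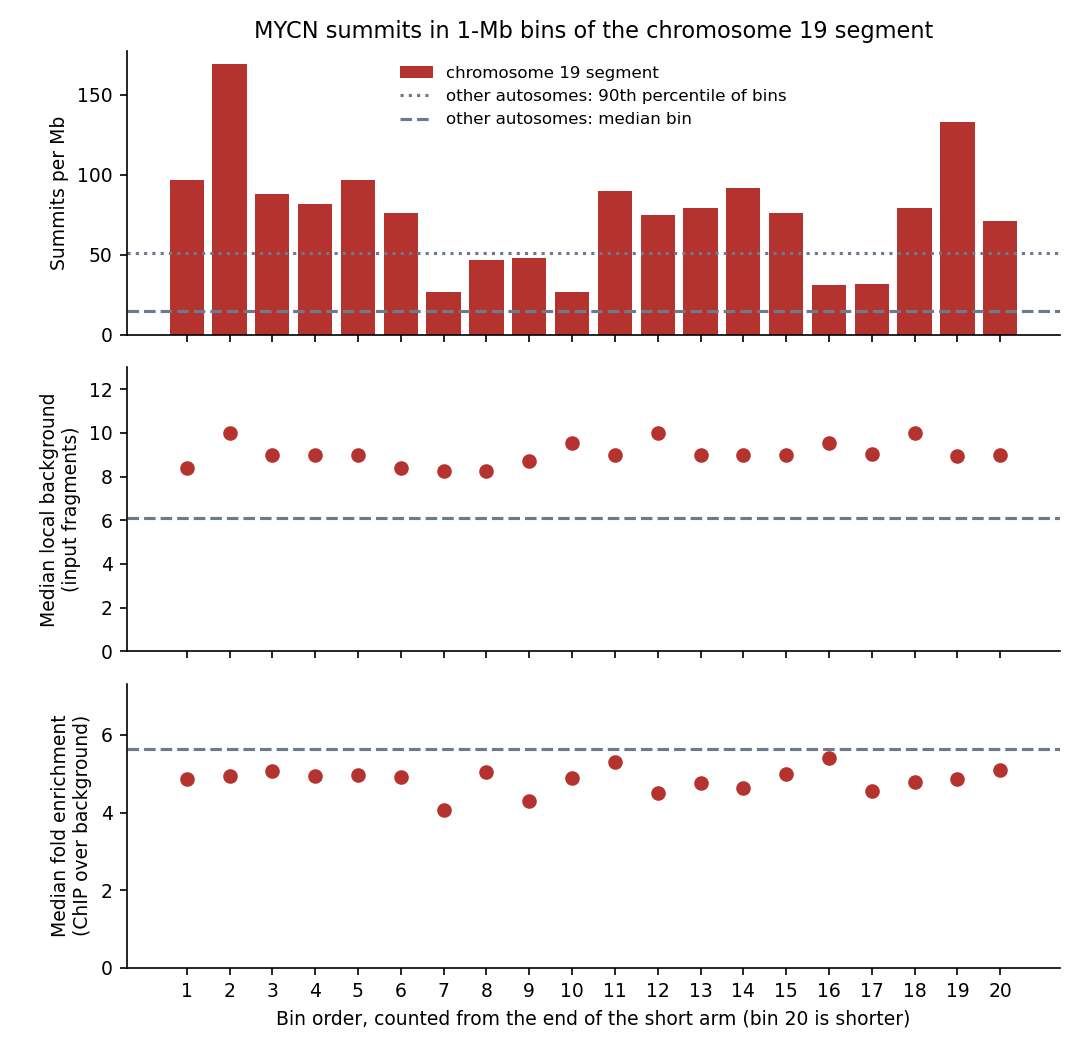
Summits per Mb (bars, top), median local background in input fragments (points, middle) and median fold enrichment (points, bottom) in the 20 bins of the segment, ordered from the end of the short arm; bin 20 covers 0.8 Mb. Dashed lines are the medians of the other autosomal 1-Mb bins and the dotted line is their 90th percentile. Summit numbers range from 27 to 169 while the median background stays between 8.26 and 10.

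The 10 strongest summits of the segment were all among the 1000 summits with the highest fold enrichment in the list. The strongest summit lay at 4246925 in an interval from 4246645 to 4247530. It had a fold enrichment of 26.3, a −log10 q of 173 and 258 ChIP fragments over a background of 5.32. It ranked 137th in the whole list. The second, at 2783547 in the interval from 2783319 to 2783757, reached 21.1 with 262 ChIP fragments. The third, at 18043522 in the interval from 18043351 to 18044175, reached 20.01 with 248. No other summit of the segment reached 20.

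The next sites by fold enrichment were close to each other in value. A summit at 18392800 reached 18.7 in the interval from 18390885 to 18393431, which held 7 summits. Summits at 3108896, 10230655 and 5341063 had fold enrichments of 18.6, 18.4 and 18.1. Their ChIP fragments numbered 230, 252 and 253. The summits at 19472063 and 16882544 had fold enrichments of 17.9 and 17.4.

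Among these 10 sites, the one at 219985, near the tip of the chromosome, was built differently. Its fold enrichment of 17.8 came from only 71 ChIP fragments over a background at the genome-wide mean of 1.61. It was the only summit of the segment at that background. The other 9 sites had backgrounds of 5.32 to 8. Of the 10 sites, 6 were alone in their interval.

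High fold enrichment was less frequent on the segment than over the other autosomes, as it was on the rest of chromosome 19 and on chromosomes 17 and 22. Of the 1502 summits, 141 had a fold enrichment of 10 or more, which is 9.39% (95% CI 7.96 to 11.0), where the whole list had 12.0% and the other autosomes 12.0%. A value of 20 or more was reached by 3 summits, 0.1997% (95% CI 0.0412 to 0.583), where the whole list had 0.778% and the other autosomes 0.785%. A fold of 10 or more was found at smaller shares on the rest of chromosome 19 (8.67%), chromosome 17 (8.19%) and chromosome 22 (6.42%), and chromosome 16 had 11.8%. For 20 or more these shares were 0.221%, 0.311%, 0.166% and 0.657%. Of the 1000 summits with the highest fold enrichment in the list, 10 were on the segment, which is 1% of them. The share with the highest fragment numbers was not clearly different from that of the other autosomes. A number of at least 252 ChIP fragments, 90% of the highest in the list, was reached at 13 summits of the segment, or 0.866% (95% CI 0.462 to 1.48). On the other autosomes the share was 0.655% (95% CI 0.592 to 0.723), within the segment's interval. This share was 0.276% on the rest of chromosome 19, 0.541% on chromosome 16, 1.55% on chromosome 17 and 1.22% on chromosome 22.

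The median fold enrichment was lower on the segment, while the input background and the number of ChIP fragments were higher. The median fold was 4.94 on the segment (95% CI 4.78 to 5.10, quartiles 3.58 and 6.86), against 5.37 on the other autosomes (quartiles 3.91 and 7.55). The median background was 9 input fragments on the segment (quartiles 7.28 and 11.1), against 7.56 on the other autosomes (quartiles 4 and 11). A segment summit held a median of 76 ChIP fragments (quartiles 52 and 116), against 63 (quartiles 41 and 103). The −log10 q, which grows with fragment number as well as fold, had a median of 16.2 on the segment and 14.5 on the other autosomes.

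**Figure D2:**
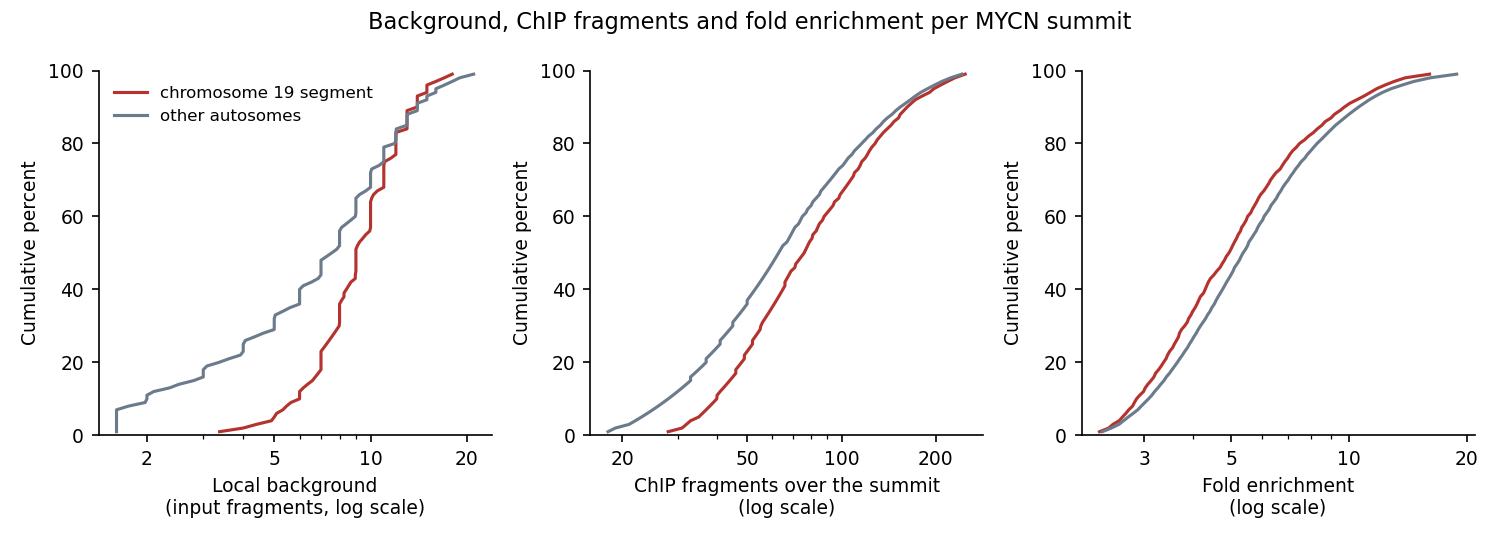
Cumulative percent of summits by local background (left), ChIP fragments (middle) and fold enrichment (right), each on a log axis, for the segment and the other autosomes; percentiles 1 to 99 are drawn. The segment curve lacks the low backgrounds and low fragment numbers of the other autosomes: its lower quartile of background is 7.28, against 4.

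A lower median fold than over all other autosomes was also found elsewhere. The rest of chromosome 19 had a median fold of 4.91 and chromosome 17 had 4.87, both within the interval of the segment's median. Chromosome 22 had 4.60, below that interval, and chromosome 16 had 5.25, above it. Among 131 windows of the segment's length with a peak, 119 had a higher median fold than the segment. The median background of the segment, 9, was exceeded in 14 of these windows and was higher than that of 109.

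Summits over a low input background were nearly lacking on the segment. A background under 4 input fragments was found at 24 summits, or 1.60% (95% CI 1.03 to 2.37), against 22.3% (95% CI 22 to 22.6) on the other autosomes. The share was 5.80% on the rest of chromosome 19, 6.03% on chromosome 22, 6.68% on chromosome 17 and 13.6% on chromosome 16. All but 1 of the 131 windows had a larger share than the segment, and the exception held only 2 summits. The share varied widely between windows, with a median of 27.5%. It was highest in 2 neighbouring windows of chromosome 18, at 53.2% and 53.0%. Backgrounds are counts of input fragments, and in no comparison were they corrected for how many copies of a region the cells carry. Whether such copies play a part in the low share of the segment was not tested. Summits with fewer than 30 ChIP fragments made up 1.53% on the segment and 11.4% on the other autosomes. Backgrounds of 12 or more were somewhat more frequent on the segment, at 23.5% (95% CI 21.4 to 25.7) against 19.9% (95% CI 19.6 to 20.2). A background above 20 was found at 4 summits of the segment (0.266%), against 1.05% on the other autosomes. It was found at 0.166% on the rest of chromosome 19, 0.193% on chromosome 16, 3.15% on chromosome 22 and 3.29% on chromosome 17. The highest on the segment was 24, at 8373169.

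The ratio of summits per Mb therefore differed between background classes. Each class was counted over the whole length of the segment or of the other autosomes, since the sequence itself was not sorted by background. These ratios thus restate the class shares on the scale of density and do not compare density at like background. Per Mb, summits with a background under 4 were fewer on the segment, 1.21 against 4.74 on the other autosomes, a ratio of 0.256 (95% CI 0.164 to 0.381). With a background of 4 to under 8 there were 21.9 per Mb on the segment and 6.24 on the other autosomes, a ratio of 3.51 (95% CI 3.18 to 3.86). The ratio was highest at 8 to under 12, with 34.9 against 6.03 per Mb and a value of 5.79 (95% CI 5.35 to 6.24). At 12 or more it was 4.23 (95% CI 3.79 to 4.70).

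Within the upper 2 background classes the fold enrichments were close, and in the lower 2 the median was lower on the segment. At a background of 8 to under 12, which holds 46.0% of the segment's summits, the median fold was 5.05 on the segment and 4.96 on the other autosomes. At 12 or more it was 4.59 and 4.56. At 4 to under 8 it was 4.82 on the segment (95% CI 4.61 to 5.06) and 5.22 on the other autosomes (95% CI 5.18 to 5.28). These 95% intervals did not overlap, but they treat each summit as separate, so this is no test of a difference. Under 4 the median fold was 5.92 on the segment (95% CI 4.63 to 8.14, 24 summits) and 6.53 on the other autosomes, within the wide interval of the segment. With the other autosomes reweighted to the segment's mix of background classes, their median fold was 4.97 and 9.87% of their summits had a fold of at least 10. The values of the segment were 4.94 and 9.39%.

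**Figure D3:**
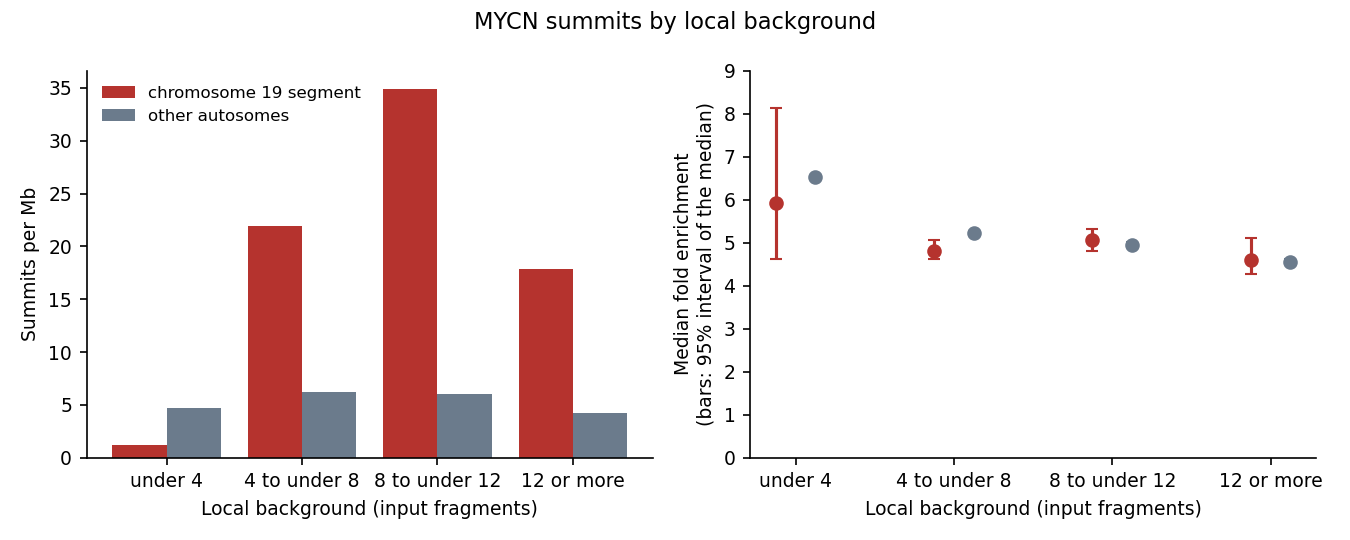
Summits per Mb (left) and median fold enrichment (right) by local background in input fragments, for the segment and the other autosomes; error bars are 95% order-statistic intervals of the median and for the other autosomes are smaller than the points. The segment has 34.9 summits per Mb at a background of 8 to under 12, against 6.03, and 1.21 at a background under 4, against 4.74. Densities are per Mb of the whole length, not per Mb of sequence with that background.

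In rich and poor bins of the segment alike, the median background at summits was above that of the median other autosomal bin. The median background of the 19 full bins ran from 8.26 to 10, and all 19 lay above 6.08, the median over other autosomal bins with a summit. At a like number of intervals this held only in poorer bins. In bins with 15 to 29 and 30 to 49 intervals it was 9 and 8.4 on the segment, against 6.44 and 8 on the other autosomes. In bins with 50 to 69 and 70 or more it was 9 and 9, against 9.24 and 11. The lowest background in a bin, taken over all of its summits, had a median of 3.32 on the segment. In 18 of 19 bins no summit was at the genome-wide mean. Among the 821 other autosomal bins with at least 27 summits, the fewest in any full bin of the segment, this held for 414, or 50.4%, and the median of the lowest background was 1.62.

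Number of summits and median fold were only weakly related among the bins of the segment. Across its 19 bins, the number of summits and the median fold had a Pearson r of 0.26 and a Spearman rho of 0.21, as a description of bins from 1 list. Across 1773 other autosomal bins with at least 10 summits the values were −0.36 and −0.36. The median fold of the 19 bins ran from 4.06, in the bin from 6 to 7 Mb, to 5.40, in the bin from 15 to 16 Mb. Both are poor bins.

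**Figure D4:**
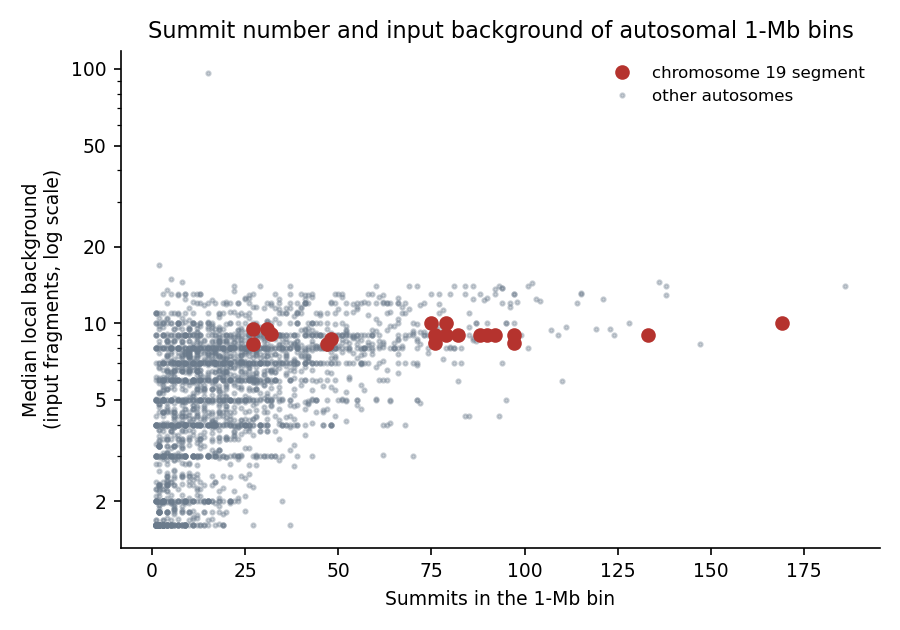
Median local background (input fragments, log axis) against the number of summits in 1-Mb bins, with the 19 full bins of the segment in red and the occupied bins of the other autosomes in grey. The segment's bins form a narrow band between 8.26 and 10 from 27 to 169 summits.

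Intervals on the segment were somewhat wider in the middle of the distribution. The median width was 325 bp on the segment (quartiles 213 and 541) and 276 bp on the other autosomes (quartiles 189 and 513). Intervals under 200 bp made up 22.1% of the segment (95% CI 19.7 to 24.7), against 28.8% of the other autosomes (95% CI 28.4 to 29.2). Intervals over 1 kb made up 6.58% (95% CI 5.18 to 8.22), against 6.86% (95% CI 6.63 to 7.10). The rest of chromosome 19 had a median width of 320 bp. Of the 131 windows, 4 had wider intervals than the segment.

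The number of summits per interval was close to that elsewhere. A single summit was held by 75.4% of the segment's intervals (95% CI 72.7 to 77.9), against 76.6% on the other autosomes (95% CI 76.3 to 77.0). Those with 4 or more made up 2.29% (95% CI 1.48 to 3.36), against 2.65% (95% CI 2.51 to 2.81). Neighbouring summits of 1 interval were a median of 290 bp apart on the segment and 299 bp on the other autosomes. Single-summit intervals had a median width of 263 bp on the segment and 228 bp on the other autosomes, over median backgrounds of 8.68 and 6 input fragments. Intervals with 4 or more summits had median widths of 1460 and 1462 bp, over backgrounds of 8.96 and 9.

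The widest intervals held summits of unequal strength. The widest ran from 1862512 to 1865198, a span of 2687 bp with 6 summits. In order along the chromosome their fold enrichments were 4.29, 11.4, 2.99, 7.73, 10.9 and 10.8, so 3 strong summits stood among weaker ones. The fifth of them held 271 ChIP fragments, the most in this interval, over a background of 15.

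The interval from 18390885 to 18393431, 2547 bp wide, held 7 summits with fold enrichments of 5.18, 5.34, 2.83, 2.73, 11.3, 18.7 and 4.72. Here 1 summit dominated, with 232 ChIP fragments. The interval from 3359093 to 3361252, 2160 bp wide, held 6 summits, of which the strongest reached 9.32. A further interval with 7 summits, from 18547456 to 18549187, had no summit above a fold enrichment of 7.19, and its weakest had 2.89.

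Intervals were closely spaced on the segment. The median gap between neighbours was 8.44 kb on the segment (quartiles 1.83 and 20.8 kb), against 18.1 kb on the other autosomes (quartiles 3.62 and 57.3 kb). A neighbour no more than 10 kb away was present at 78.0% of the segment's intervals (95% CI 75.4 to 80.4), against 59.1% on the other autosomes (95% CI 58.7 to 59.6). This share was higher than in any of the 131 windows, where it reached 75.1% at most. The median gap was shorter in 1 of these windows, on chromosome 1, at 8337 bp against 8441 bp on the segment. Intervals with no neighbour within 50 kb were few, 1.92% on the segment and 12.0% on the other autosomes. A neighbour within 1 kb was present at 35.6% (95% CI 32.7 to 38.5) of the segment's intervals, against 29.1% (95% CI 28.6 to 29.5) on the other autosomes. Gaps of at most 1 kb made up 20.04% on the segment and 16.3% on the other autosomes.

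Gaps shorten with density, so spacing was also set beside that of bins with a like number of intervals. The intervals of the shares overlapped in each of 4 classes. In bins with 50 to 69 intervals, a neighbour within 10 kb was found for 77.6% of the segment's intervals (95% CI 73.9 to 81.1, 9 bins), against 79.0% on the other autosomes (95% CI 77.9 to 80.0, 108 bins). In bins with 70 or more the shares were 86.8% (95% CI 82.9 to 90.2, 4 bins) and 84.8% (95% CI 83.3 to 86.2, 30 bins). In bins with 30 to 49 they were 72.9% (95% CI 60.9 to 82.8, 2 bins) and 66.6% (95% CI 65.8 to 67.5, 317 bins). In bins with 15 to 29 they were 51.2% (95% CI 40.0 to 62.3, 4 bins) and 53.8% (95% CI 52.9 to 54.6, 666 bins). The median fold was 5.03 on the segment and 5.55 on the other autosomes in bins with 15 to 29 intervals, and 4.96 and 5.19 in bins with 30 to 49. It was 4.91 and 4.86 in bins with 50 to 69, and 4.92 and 4.61 in bins with 70 or more. The median backgrounds in these classes were 9, 8.4, 9 and 9 input fragments on the segment, against 6.44, 8, 9.24 and 11 on the other autosomes.

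**Figure D5:**
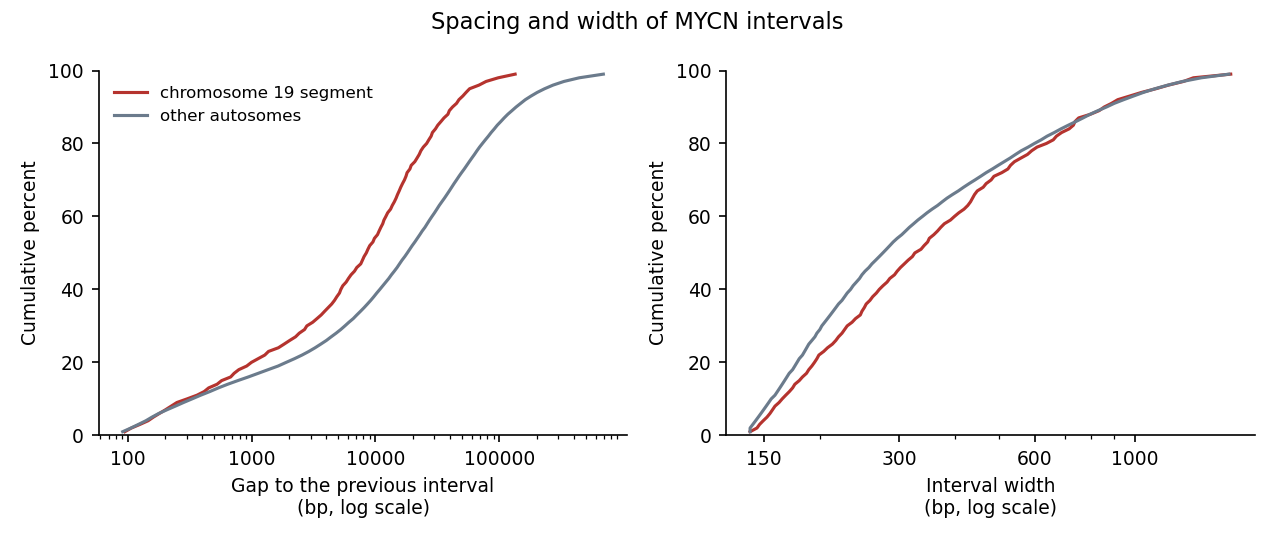
Cumulative percent of intervals by gap to the previous interval (left) and by width (right), in bp on log axes, for the segment and the other autosomes; percentiles 1 to 99 are drawn. The gap curves meet at the shortest gaps and lie apart at longer ones, with medians of 8.44 and 18.1 kb; the width curves start together and lie furthest apart in the middle, with medians of 325 and 276 bp.

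Neighbouring intervals within 10 kb were joined into clusters. On the segment 28 clusters held 6 or more intervals, or 1.41 per Mb, against 0.197 per Mb on the other autosomes. These clusters held 21.1% of the segment's intervals and 9.90% of those on the other autosomes. The largest cluster ran from 1236626 to 1295925, in the richest bin, and held 18 intervals and 33 summits over 59.3 kb. Its strongest summit had a fold enrichment of 11.9. The next ran from 12868406 to 12917726 with 17 intervals and 21 summits, a highest fold of 13.9 and a median of the intervals' highest fold of 7.67. The third ran from 13944343 to 13992299 with 14 intervals and 28 summits.

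Long stretches without a MYCN interval were few, and the 3 longest lay in or at the edge of the poorer bins. The longest, from 6552219 to 7067256, spanned 515 kb. The second, from 15667506 to 16152445, spanned 485 kb, and the third, from 8943516 to 9250902, spanned 307 kb. Gaps over 200 kb numbered 5 of 1093 on the segment (0.457%), against 6.13% of the gaps on the other autosomes. Gaps over 100 kb together took up 19.7% of the segment's length and 66.1% of the other autosomes. Unmappable sequence counts as gap in these shares.

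At the boundary of the segment, the last summit inside was at 19779721, with a fold enrichment of 2.42. The first outside was at 19843947, with a fold enrichment of 5.58.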

How the data were processed

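MYCN ChIP-seq of Kelly cells was read from the deposited peak lists, 1 per state. Per the submitters' processing notes, STAR 2.5.1b, SAMtools 1.3.1, Picard, deepTools 2.2.4, MACS2 2.1.1 and hg19 were used. Settings, duplicate removal and the way both ChIP samples were combined: not given in the sources used here. In the deposited lists each row is 1 summit, with the authors' fold enrichment (a ratio), −log10 p-value, −log10 q-value and integer score. The lowest deposited −log10 q is 2.01. The files hold no read totals.

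Members and comparisons were chosen with earlier results of these data known. Fold and p were solved together for ChIP fragments and local background with MACS2's relations: fold is the scaled pileup plus 1 over background plus 1, and p the Poisson upper tail. A scale of 0.641 matched 64657 of 64657 summits within 0.0005 in −log10 p (24 had 2 solutions, and the closer was kept). On simulated data with another scale, the ChIP fragment number was returned exactly for 1823 of 1823 summits. The background, which follows from that number, the scale and the fold, was not compared there. The simulation did not reach the highest fragment numbers or the lowest backgrounds of the list.

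Bins were 1 Mb, and an interval was placed by its strongest summit. Named sites were the 10 summits of highest fold, the 3 widest intervals, those with most summits, the richest and poorest bins, the longest gaps and the largest clusters; the summit of highest background was added after its value was seen. Background classes start at 4, 8 and 12 input fragments. Shares carry exact binomial and density ratios exact Poisson 95% intervals; medians carry order-statistic intervals. Other autosomes run to their last peak. Python 3.11.15, numpy 2.4.6, pandas 2.3.3, scipy 1.17.1 and matplotlib 3.10.9 were used.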

Additional observations from a re-analysis of the deposited data

How the results depend on the processing

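No paired analysis was possible because the peaks of both ChIP samples come as 1 list, so leaving out a replicate was not possible either. The density ratio of 3.57 stayed above 1 in all 8 alternatives. It was 3.12 for summits with a fold of at least 5, 3.24 over occupied bins, 2.04 against chromosomes 16, 17 and 22 and 1.65 against the rest of chromosome 19. The difference in median fold, −0.428 (segment minus other autosomes), was −0.774 at a −log10 q of at least 10 and −0.270 at a fold of at least 5. It was −0.0368 with the other autosomes reweighted by background, an alternative chosen after seeing the data, and turned positive against chromosomes 16, 17 and 22 (0.0377) and the rest of chromosome 19 (0.0258). The difference in median width, 49 bp, was 111 bp at a fold of at least 5, 29 bp against chromosomes 16, 17 and 22 and 5 bp against the rest of chromosome 19. The difference in the share with a neighbour within 10 kb, 18.8 percentage points, was 14.6 with 5 kb, 8.59 against chromosomes 16, 17 and 22, 10.9 against the rest of chromosome 19 and 8.14 in bins with 30 or more intervals. The cause of these shifts was not tested. Other alternatives stayed within the intervals of the values reported. The E-box share was not run, since no genome on hg19 was used.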

Other observations

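Chromosome 19 as a whole had the most summits per Mb of the 22 autosomes but the fewest per gene. With the protein-coding genes of RefSeq on GRCh38.p14, counted per chromosome only, it had 3313 summits for 1451 genes, or 2.28 per gene, against 3.39 on the other autosomes. The next lowest were chromosome 11 with 2.58 and chromosome 21 with 2.68. Chromosome 17 had 3.30 and chromosome 22 had 4.01. How many of these genes lie on the segment was not determined, because the gene table and the peaks are on different builds.

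The E-box CACGTG, which reads the same on both strands, was counted in the RefSeq promoters of GRCh38.p14, from 250 bases before to 50 after the start of a protein-coding gene. It was in 94 of 1185 promoters on chromosome 19, or 7.93% (95% CI 6.46 to 9.62), against 8.84% (95% CI 8.37 to 9.32) on the other autosomes in the table and 8.77% on all of its autosomes. Promoters of chromosome 8 were not used here, so neither share includes them. This describes promoters of the whole chromosome and none of the MYCN sites.

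The background of each summit was also sorted by the kind of number it was. Whole numbers, which input fragments at the summit position would give, were found at 62.1% of the segment's summits (95% CI 59.5 to 64.5), against 58.8% on the other autosomes. It was a multiple of 0.14, as for a 1-kb window, at 32.7% (95% CI 30.3 to 35.1), against 27.9%. Multiples of 0.014, as for a 10-kb window, made up 5.19% and 6.08%. The kinds overlap, although each summit was counted under a single kind. Some whole numbers are also multiples of 0.14, and each multiple of 0.14 is also one of 0.014. The kind of number therefore does not settle which estimate set a background.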
